A study of Mus musculus with 6 samples.

Results

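The melanocyte genes of the cochlea are the subject here, 10 genes named for their roles in pigment cells: *Tyr*, *Dct*, *Tyrp1*, *Si* (now named *Pmel*), *Mlana*, *Slc45a2*, *Mitf*, *Ednrb*, *Kit* and *Sox10*. They were found on the array by gene symbol. Of the 10 genes, 8 were matched on the array, with 16 of its 25697 features, which cover 18138 gene symbols. *Kit*, the receptor of the Kit ligand, and *Sox10*, a neural crest transcription factor, were not matched and were not analysed here.

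RNA came from the cochleae of 3 WT and of 3 *Cmah*-null mice, all C57BL/6 by the labels (C57BL/6J in the methods) and 12 months old. *Cmah* encodes the hydroxylase that makes the sialic acid Neu5Gc, the methods give the knockout allele as *Cmah* tm1Ykoz, and the comparison asks how its loss relates to the transcripts of the ageing cochlea. Each mouse sample was hybridized to 1 Illumina MouseRef-8 v2 array, and nothing in the labels says how the tissue of a sample was pooled or how much bone, muscle or skin the dissection kept. The data columns call the second group "old", while the sample labels call it *Cmah*-null and give both groups the same age, so these columns were taken as *Cmah*-null because the WT columns are named as such.

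In the stria vascularis, the epithelium along the lateral wall of the cochlea, the intermediate cells are melanocytes that come from the neural crest. Their potassium channels are needed for the endocochlear potential, the voltage that drives the hair cells, and mice that lack these cells are deaf. Melanin is built in the melanosome, where tyrosinase (*Tyr*) starts the synthesis and dopachrome tautomerase (*Dct*) and tyrosinase-related protein 1 (*Tyrp1*) act further along the eumelanin branch. The Pmel protein (*Si*) forms the fibrils on which pigment is laid down, melan-A (*Mlana*) takes part in the handling of Pmel, and *Slc45a2* encodes a melanosome membrane transporter. *Mitf* encodes the transcription factor that switches these genes on, and *Ednrb* the receptor for endothelin 3 on which melanocyte precursors depend. C57BL/6 is a pigmented strain. Pigment cells also lie in skin and hair follicles, *Ednrb* is made by several other cell types, and *Mitf* is used by osteoclasts and mast cells, so a signal in whole tissue has no single source.

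Each array feature is a 50-base oligonucleotide, of which the first 30 bases are shown in lower case for the 5 features on which the results turn, the 3 of *Tyrp1* because they did not behave alike and those of *Dct* and *Mlana* because their signals varied most among the genes made mainly by pigment cells. They are named by the array's feature identifiers and by the transcript position of their first base.
Tyrp1 ILMN_1228521, position 2632: gttgtatttcatttcaacagcattgttaca
Tyrp1 ILMN_1244305, position 1559: cgcacctattggacataacaggcaatacaa
Tyrp1 ILMN_2425003, position 1045: gcgatgtctgcactgatgacttgatgggat
Dct ILMN_1251894, position 1885: gaaggcttcgcaaaggctatgcgcccttaa
Mlana ILMN_2624504, position 463: gcctatgagaagctctcttcaccgccacct

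The enzyme genes hold a known motif near their start sites. The M-box, TCATGTG, is the sequence that Mitf is known to recognise in pigment enzyme genes. It was searched on both strands of the 250 bases before each start site in RefSeq (build GRCm38.p6), which held 9 promoters of 6 of the 10 genes. *Tyr*, *Dct* and *Tyrp1* held the motif, and the promoters of *Mitf*, *Ednrb* and *Kit* did not hold these letters in this window. Of all 32851 promoters of the same length, 1068 (3.25%) held it. *Si*, *Mlana*, *Slc45a2* and *Sox10* had no entry. The stretches are printed 5′ to 3′ on the strand of the gene with the motif, or its reverse complement CACATGA, in capitals. For *Tyrp1* only 30 bases around the motif are printed, since the last 90 of its 250 bases, and with them the motif, lie inside the gene as RefSeq annotates it from an earlier start.
Tyrp1, chr4:80834155-80834184, plus strand: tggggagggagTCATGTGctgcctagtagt
Tyr, chr7:87493513-87493762, minus strand: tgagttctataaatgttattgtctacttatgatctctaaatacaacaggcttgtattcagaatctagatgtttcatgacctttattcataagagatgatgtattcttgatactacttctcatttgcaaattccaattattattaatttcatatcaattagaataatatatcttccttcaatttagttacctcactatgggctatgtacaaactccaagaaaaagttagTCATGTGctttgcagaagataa
Dct, chr14:118052247-118052496, minus strand: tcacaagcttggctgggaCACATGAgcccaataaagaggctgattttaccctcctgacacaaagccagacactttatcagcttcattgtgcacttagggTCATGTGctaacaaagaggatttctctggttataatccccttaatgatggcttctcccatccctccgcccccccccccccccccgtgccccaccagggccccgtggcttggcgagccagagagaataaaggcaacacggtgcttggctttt
The motif began 47 bases before the start site used here in *Tyrp1*, 22 in *Tyr* and 151 in *Dct*, which also held the reverse complement from 232 bases before the start. This is a description of the letters only, and no binding was measured.

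Before the values, some arrays stood apart. Between 13873 and 15223 features were detected per array (detection p under 0.05 against the negative controls), and the lowest log2 signal of a detected feature was 7.44 to 7.57, which marks the background on this scale. *Cmah*-null replicates 1 and 2 were unusually alike, with an SD of their log2 difference over all features of 0.13 against 0.31 to 0.64 for every other pair, while *Cmah*-null replicate 3 lay 0.56 to 0.64 from every other array. Whether replicates 1 and 2 are separate mice is not known, so p-values measure the spread between these samples, which may be technical. The arrays also fell into a set with fewer beads per feature (median 32 to 34, WT replicate 1 and *Cmah*-null replicates 1 and 2) and a set with more (38 to 39, the other 3). The feature of *Cmah* itself had 7.27, 7.28 and 7.87 in WT and 7.95, 7.98 and 7.27 in *Cmah*-null replicates 1 to 3 and was detected on 1 WT and 2 *Cmah*-null arrays. It was thus not lower in the samples labelled *Cmah*-null, and whether it lies in the deleted part of the gene is not given in the sources used here, so the directions below rest on the labels alone.

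The melanocyte genes showed no shared difference between the genotypes. *Tyrp1* lay lower in all 3 *Cmah*-null samples, while *Dct*, *Mlana*, *Slc45a2* and *Ednrb* overlapped between the groups, and *Tyr* was not detected. *Dct*, *Si* and *Ednrb* were detected on all 6 arrays, *Tyrp1*, *Mlana*, *Mitf* and *Slc45a2* on some, so 7 of the 8 genes were detected on at least 1 array. In limma none of the 16 features passed an adjusted p under 0.05, against 0% of all features, where the smallest adjusted p was 0.25 and 2199 features had an unadjusted p under 0.05. None was 1.5-fold higher with an unadjusted p under 0.05, where 1.3% of all features were, and none was 1.5-fold lower by that rule, where 1.41% were. The groups did not overlap in 0 features with *Cmah*-null higher, against 9.11% of all features. They did not overlap in 2 with *Cmah*-null lower, against 7.33%, both *Tyrp1* features, of which ILMN_1244305 was detected on no array. Together that is 12.5% of the 16 features, no more than the 16.4% of all features whose groups did not overlap in either direction. In whole tissue, fewer melanocytes and less RNA per melanocyte cannot be told apart.

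**Figure D1:**
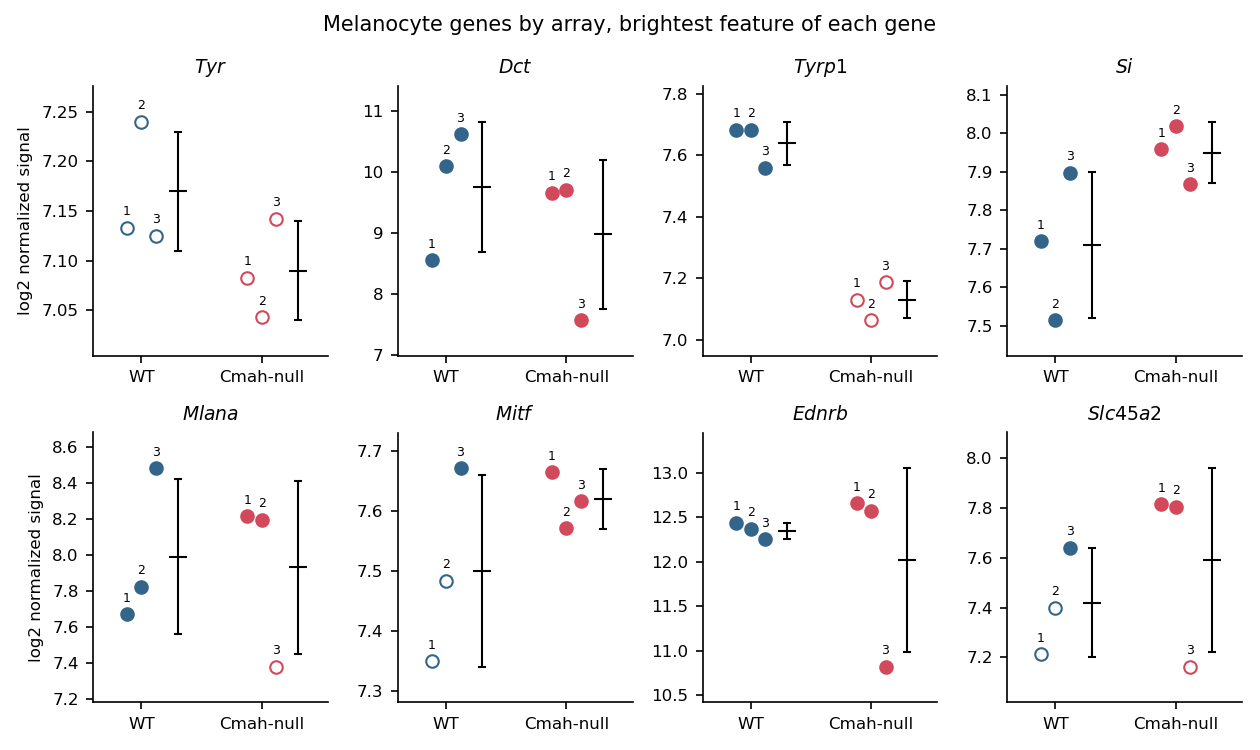
Log2 normalized signal of the 8 melanocyte genes on each array, for the brightest feature of a gene, with replicate numbers above the points and a vertical scale that differs between panels. Filled points were detected and open points were not, the bars show mean and SD (n = 3), and *Tyrp1* is the panel in which the 3 *Cmah*-null points, 7.06 to 7.19, all lie below the 3 WT points, 7.56 to 7.68.

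Among the enzymes of melanin synthesis, each by its brightest feature, only *Tyrp1* had groups that did not overlap. Its feature near the end of the transcript (ILMN_1228521, chromosome 4) had a log2 signal of 7.68, 7.68 and 7.56 in WT replicates 1 to 3 and of 7.13, 7.06 and 7.19 in *Cmah*-null replicates 1 to 3. It was detected on all 3 WT arrays and on no *Cmah*-null array, and every *Cmah*-null value lay below every WT value. The WT mean was 7.64 ± 0.07 (SD, n = 3) and the *Cmah*-null mean 7.13 ± 0.06 (SD, n = 3), a log2 fold change of -0.52 (SE 0.08, 95% interval -0.71 to -0.33, limma adjusted p = 0.365). That is 1.43-fold, under the 1.5-fold rule. Since the *Cmah*-null arrays give only a bound, the WT mean was set against the lowest detected signal of each *Cmah*-null array (mean 7.53). The WT mean lay 1.08-fold above that bound, a point estimate with no error attached.

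The separation was also seen before normalization. The raw signal was 203, 206 and 190 in WT and 131, 118 and 157 in *Cmah*-null replicates 1 to 3, with a standard error over beads of 13.3 or less on each array. Within the set of arrays with fewer beads the difference was -0.58 on the log2 scale, and within the set with more beads -0.43. The log2 fold change ranged from -1.2 to -0.48 over the alternatives. As the groups did not overlap, leaving out, averaging or blocking arrays could not turn its sign, nor could the split by bead number. Only another scaling could have. The difference reached the 1.5-fold rule under neqc normalization (-1.2, SE 0.14, limma adjusted p = 0.258), which subtracts background, and under median scaling (-0.6, SE 0.18, limma adjusted p = 0.175). Of all 25697 features, 698 were called lower under neqc and 79 under median scaling, against 363 with the deposited values.

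The other *Tyrp1* features were detected on no array. ILMN_1244305, at position 1559, had 7.24, 7.25 and 7.28 in WT and 7.09, 7.09 and 6.96 in *Cmah*-null replicates 1 to 3, a log2 fold change of -0.21 (SE 0.07, adjusted p = 0.549). ILMN_2425003, at position 1045, overlapped between the groups, with a log2 fold change of 0.07 (SE 0.09). The plot of raw signal shows the 3 features side by side, and the difference of the first rests on 1 of the 3 features having been above background in WT.

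**Figure D2:**
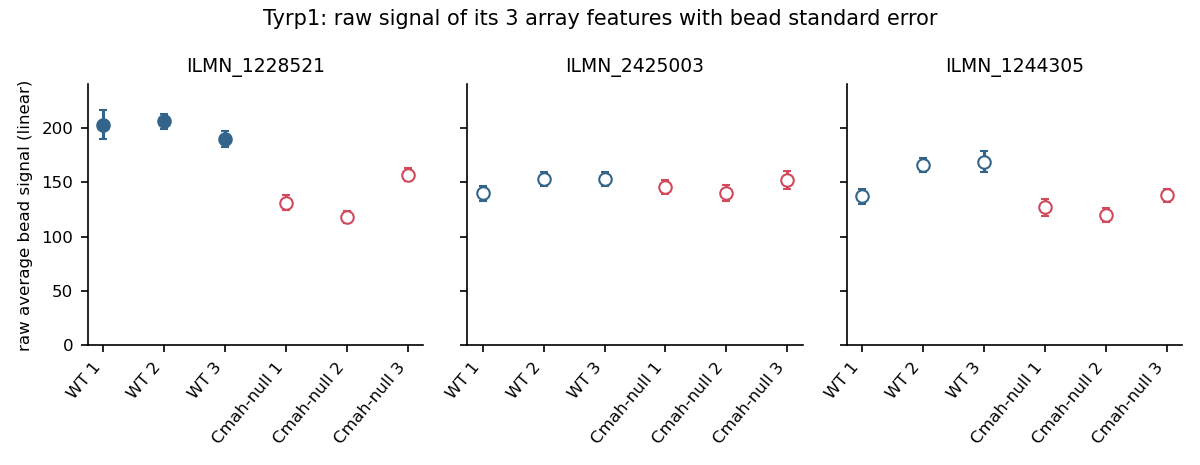
Raw average bead signal of the 3 *Tyrp1* features on each array, on a linear axis from 0, with error bars of 1 standard error over the beads of an array. Filled points were detected, which only the WT arrays of ILMN_1228521 were, at 190 to 206 against 118 to 157 in *Cmah*-null mice.

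*Dct*, the most variable of the melanocyte genes, did not follow genotype. Its feature (ILMN_1251894, chromosome 14) had a log2 signal of 8.56, 10.1 and 10.62 in WT replicates 1 to 3 and of 9.66, 9.71 and 7.57 in *Cmah*-null replicates 1 to 3. WT replicate 3 was the highest and *Cmah*-null replicate 3 the lowest, with a detection p of 0.0489, and the groups overlapped. The range over the 6 arrays was 3.05 log2 units, and the SD of *Dct* over the arrays exceeded that of 99.6% of the features detected on all 6 arrays.

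For *Dct* the WT mean was 9.76 ± 1.07 (SD, n = 3) and the *Cmah*-null mean 8.98 ± 1.22 (SD, n = 3), a log2 fold change of -0.78 (SE 0.78, 95% interval -2.7 to 1.15, limma adjusted p = 0.801). The fold change of 1.71 was thus past the 1.5-fold limit while its error was as large as the change. Without *Cmah*-null replicate 3 it was -0.07 (SE 0.6), and without WT replicate 1 it was -1.38 (SE 0.74). Within the arrays with fewer beads *Dct* was 1.12 higher in *Cmah*-null mice, and within those with more beads the difference was -2.79, so the direction turned between the sets.

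The raw signal of *Dct* was 401, 877 and 1157 in WT and 1108, 1083 and 186 in *Cmah*-null replicates 1 to 3. The standard error over beads, which covers noise within an array only, was 39.7 or less. *Tyr*, the gene of the enzyme that starts the pathway, gave 7.13, 7.24 and 7.12 in WT and 7.08, 7.04 and 7.14 in *Cmah*-null replicates 1 to 3. Its feature (ILMN_2522236) was detected on no array, so no direction can be read from it.

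Neither *Si* nor *Mlana* passed a test. *Si* had a log2 signal of 7.72, 7.51 and 7.9 in WT and 7.96, 8.02 and 7.87 in *Cmah*-null replicates 1 to 3 at its brighter feature (ILMN_2627503, chromosome 10), detected on all 6 arrays. The groups overlapped narrowly, and the log2 fold change was 0.24 (SE 0.12, 95% interval -0.05 to 0.53, adjusted p = 0.638). Without WT replicate 3 the *Cmah*-null values of *Si* all lay higher, at a log2 fold change of 0.33, and without *Cmah*-null replicate 3 too, at 0.28. Smaller groups overlap less often by construction. Under neqc the log2 fold change was 0.58 (SE 0.27, limma adjusted p = 0.597). Its other feature, ILMN_1230512, was detected on no array and had a log2 fold change of 0 (SE 0.08).

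*Mlana* varied between mice in the manner of *Dct*. Its log2 signal was 7.67, 7.82 and 8.48 in WT and 8.21, 8.19 and 7.38 in *Cmah*-null replicates 1 to 3, and *Cmah*-null replicate 3 was the one array on which it was not detected. WT replicate 3 was the highest array and *Cmah*-null replicate 3 the lowest, as for *Dct*. The log2 fold change was -0.06 (SE 0.31, 95% interval -0.83 to 0.71, adjusted p = 0.968), and without *Cmah*-null replicate 3 it was 0.21 (SE 0.25).

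*Slc45a2* has 4 features, all near background. The brightest (ILMN_2985987, chromosome 15) had 7.21, 7.4 and 7.64 in WT and 7.82, 7.8 and 7.16 in *Cmah*-null replicates 1 to 3, detected on 1 WT and 2 *Cmah*-null arrays. Here *Cmah*-null replicates 1 and 2 were the highest arrays and *Cmah*-null replicate 3 the lowest, so the groups overlapped. The log2 fold change was 0.18 (SE 0.22, adjusted p = 0.841), and 0.39 (SE 0.14) without *Cmah*-null replicate 3. The other 3 features had log2 fold changes of 0.07, -0.1 and 0.1 and were detected on 2, 1 and 0 arrays.

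*Mitf*, the regulator of the set, had 7.35, 7.48 and 7.67 in WT and 7.67, 7.57 and 7.62 in *Cmah*-null replicates 1 to 3. It was detected on 1 WT array and all 3 *Cmah*-null arrays, with overlap between the groups. The log2 fold change was 0.12 (SE 0.1, 95% interval -0.14 to 0.37, adjusted p = 0.775). The range over all arrays was 0.32 log2 units, against 3.05 for *Dct*, but *Mitf* lay near background throughout. Under neqc, which subtracts background, *Mitf* lay at 5.31 to 6.19 and *Dct* at 5.92 to 10.55.

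*Ednrb*, the endothelin receptor, set 1 array apart from the rest. ILMN_2589640 had 12.44, 12.37 and 12.25 in WT and 12.65, 12.57 and 10.82 in *Cmah*-null replicates 1 to 3, so that the other 5 arrays lay close together and *Cmah*-null replicate 3 was far below them. A second feature, ILMN_2917471, had 9.75, 10.04 and 9.85 in WT and 9.9, 9.65 and 8.88 in *Cmah*-null replicates 1 to 3, with the same array lowest. Both were detected on all 6 arrays, and the third feature, ILMN_2717765, at the start of the transcript, was detected on none.

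The log2 fold change of *Ednrb* was -0.34 (SE 0.5, 95% interval -1.57 to 0.9, adjusted p = 0.871) at the first feature and -0.4 (SE 0.27, adjusted p = 0.717) at the second. Without *Cmah*-null replicate 3 the first turned to 0.26 (SE 0.09, limma adjusted p = 0.331). It also turned under median scaling, to 0.15 (SE 0.61), while the second feature was -0.11 without *Cmah*-null replicate 3. Within the arrays with fewer beads the first was 0.17, and within those with more beads -1.49. The direction of *Ednrb* was not settled.

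**Figure D3:**
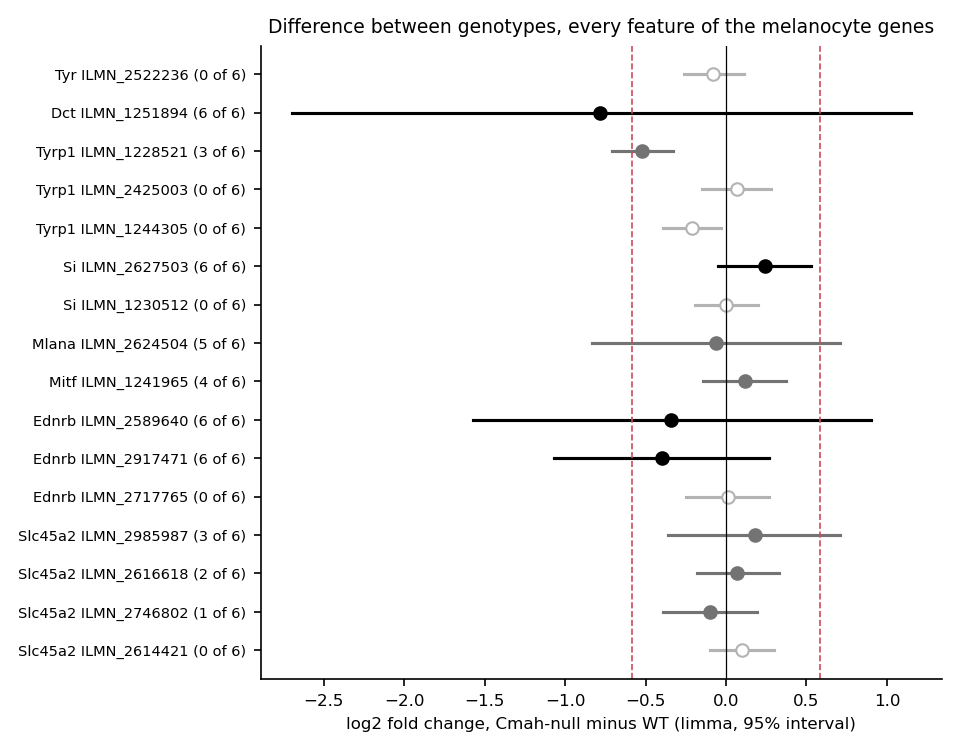
Log2 fold change, *Cmah*-null minus WT, of all 16 features of the melanocyte genes with 95% intervals from limma, and in brackets the number of the 6 arrays on which a feature was detected. Black points were detected on all arrays, grey on some and open on none, and the dashed lines mark 1.5-fold. The intervals of the *Tyrp1* features at -0.52 and -0.21 exclude 0 before adjustment, but the feature at -0.21 was detected on no array. The interval of the *Tyrp1* feature at 0.07 holds 0. Those of *Dct* and of the brightest *Ednrb* feature are the widest.

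Over the 8 genes, each by its brightest feature, the median log2 fold change was -0.07, with 3 above and 5 below 0, beside a median of 0.002 over all features and 0.026 over the 12410 features detected on all 6 arrays. Of the 10 features detected on at least 1 array, 4 had log2 fold changes above 0 and 6 below. In *Dct*, *Mlana* and *Slc45a2*, 3 of the 8 genes, WT replicate 1 and *Cmah*-null replicate 3 were the lowest pair of arrays, a pattern noticed after the values were seen. The same pair was lowest in 1392 (11.2%) of the 12410 features detected on all arrays. Of these 3 genes only *Dct* is among those features, as *Mlana* was detected on 5 arrays and *Slc45a2* on 3. *Si* and *Ednrb*, also detected on all arrays, did not have this lowest pair.

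The profile across arrays was taken as the mean of the centred log2 values of 5 genes, *Dct*, *Tyrp1*, *Si*, *Mlana* and *Slc45a2*, each detected on at least 3 arrays. *Tyr*, detected on no array, was left out of the profile. *Mitf* and *Ednrb*, which other cells also make, were not part of it. The profile read -0.24, 0.09 and 0.43 in WT and 0.15, 0.15 and -0.58 in *Cmah*-null replicates 1 to 3. The genes were not scaled, so *Dct* weighed most. In *Cmah*-null replicate 3 *Dct* stood at -1.80, *Mlana* at -0.58, *Slc45a2* at -0.34, *Tyrp1* at -0.19 and *Si* at 0.04. Outside the gene lists, the 4 features nearest to it over these 6 arrays were those of *Rdm1*, *Il11ra1*, *Fastkd5* and *Sec14l3*, with root mean square differences of 0.027 to 0.064 log2 units. The likeness is over 6 points only, and nothing about shared function or control follows from it.

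Other genes of pigment cells were read from 4 further lists. Among melanosome proteins and transporters, 11 of 11 genes were on the array and none passed the 1.5-fold rule, and the log2 fold changes ranged from -0.33 to 0.72 around a median of 0.05. *Gpnmb*, a melanosome glycoprotein also made by macrophages and osteoclasts, had 10.74, 11 and 12.36 in WT and 12.12, 12.02 and 12.13 in *Cmah*-null replicates 1 to 3, a log2 fold change of 0.72 (SE 0.42, adjusted p = 0.684). It passed the rule without WT replicate 3 (1.22) and under median scaling (1.23), a setting that raised the median of all features detected on every array from 0.03 to 0.30, and was 0.41 without WT replicate 1. *Oca2*, the pink-eye dilution gene that encodes a melanosome transporter, was chosen after its values were seen. It had 7.17, 7.23 and 7.14 in WT and 7.79, 7.74 and 7.28 in *Cmah*-null replicates 1 to 3, without overlap, and was detected on 0 WT and 2 *Cmah*-null arrays (log2 fold change 0.42, SE 0.15, adjusted p = 0.556).

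Among the genes of melanosome trafficking, which sort cargo to the melanosome and move it along the cytoskeleton in many cell types, 19 of 19 were on the array and 17 were detected on all 6 arrays. None passed the 1.5-fold rule, and the median log2 fold change was 0.1 (range -0.35 to 0.46). The largest without overlap were *Hps4*, a subunit of a complex lost in Hermansky-Pudlak syndrome, at 0.46 (SE 0.15, adjusted p = 0.543), and *Ap3d1*, a subunit of the AP-3 adaptor, at 0.34 (SE 0.1, adjusted p = 0.505). In *Hps4* the WT arrays lay at 8.28 to 8.65 and the *Cmah*-null arrays at 8.73 to 9.13. *Hps4* passed the rule under neqc (0.67) and median scaling (0.67), and *Ap3d1* under median scaling (0.84).

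Of 15 genes of pigment cell ligands and receptors, 13 were on the array, 1 was called lower and none higher. The gene called was *Kitl*, the ligand of the Kit receptor, which melanocytes need for survival and migration and which other cells of the tissue make. Its log2 signal was 8.59, 8.63 and 8.18 in WT and 7.91, 8.07 and 7.19 in *Cmah*-null replicates 1 to 3, so every *Cmah*-null array lay below every WT array. It was detected on 3 WT and 2 *Cmah*-null arrays. The log2 fold change was -0.74 (SE 0.26, unadjusted p = 0.0302 and adjusted p = 0.551 in limma). Without *Cmah*-null replicate 3 it was -0.48, without WT replicate 1 -0.68 and without WT replicate 2 -0.66, and none of these passed the rule, nor did -0.56 under median scaling. The difference was -0.60 within the arrays with fewer beads and -1.22 within those with more.

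Of the other genes in that list, *Ednra*, the receptor of endothelin 1, lay higher in all 3 *Cmah*-null arrays, at 10.73 to 11.14 against 10.27 to 10.66 (log2 fold change 0.4, SE 0.16, adjusted p = 0.58). *Mgrn1*, the ubiquitin ligase of the mahoganoid coat mutant, had a log2 fold change of 0.5 (SE 0.21, adjusted p = 0.591), and 0.28 without *Cmah*-null replicate 3. *Mgrn1* passed the rule without *Cmah*-null replicate 2 (0.63) and under median scaling (1), as did *Ednra* under median scaling (0.85). *Edn3*, the ligand of *Ednrb*, and *Mc1r*, the melanocortin receptor, were detected on no array, and *Asip* by that name was not matched. Over the 13 genes the median log2 fold change was 0.13.

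Of 14 pigment cell transcription factors, 10 were on the array, 1 was called lower and none higher, with a median log2 fold change of -0.02. *Zeb2*, a zinc finger factor of neural crest cells that many other cells also express, had 11.55, 12.04 and 11.38 in WT and 10.66, 10.76 and 10.81 in *Cmah*-null replicates 1 to 3. The groups were separate, with a log2 fold change of -0.91 (SE 0.18, unadjusted p = 0.00237, adjusted p = 0.397 in limma). It was below 0 in both sets of arrays, -0.84 with fewer beads and -0.90 with more, but under median scaling it was -0.43 and did not pass the rule. *Pax3* and *Foxd3*, factors of the early melanocyte lineage, were detected on no array.

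The stria was also read through a list of its ion transport genes, of which *Kcnj10* was not matched. Of 14 genes, 13 were on the array and 11 were detected on all 6 arrays, with 1 called higher, none lower and a median log2 fold change of 0.26. The gene called was *Atp1b2*, a sodium pump subunit, with 12.77, 11.8 and 11.26 in WT and 13.02, 13 and 13.29 in *Cmah*-null replicates 1 to 3 (log2 fold change 1.16, SE 0.38, unadjusted p = 0.0237, adjusted p = 0.54 in limma). The call was lost without any 1 of WT replicates 2 and 3 or *Cmah*-null replicates 1, 2 and 3, at 0.82 to 1.21. It was 0.24 within the arrays with fewer beads and 1.76 within those with more. *Bsnd*, the barttin subunit of the chloride channels of marginal cells, had 0.33 (SE 0.1, adjusted p = 0.525) and passed the rule under neqc (0.63).

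*Kcne1*, the potassium channel subunit of marginal cells, was chosen after its values were seen because it ranked the arrays nearly as *Dct* did. It had 7.57, 8.35 and 8.51 in WT and 8.26, 8.24 and 7.03 in *Cmah*-null replicates 1 to 3. *Slc12a2*, the chloride cotransporter of the same cells, also chosen then, had 13.79, 13.84 and 14.24 in WT and 14.3, 14.12 and 13.32 in *Cmah*-null replicates 1 to 3. In these and in *Kcnj16*, 3 of 13 stria genes, WT replicate 1 and *Cmah*-null replicate 3 were the lowest pair, as in *Dct*. *Slc26a4*, the pendrin gene of spindle and root cells, had 8.31, 10.3 and 11.02 in WT and 10.07, 10.06 and 10.64 in *Cmah*-null replicates 1 to 3, and so was lowest in WT replicate 1 but not low in *Cmah*-null replicate 3.

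Markers of other tissues that a dissected cochlea can carry moved between arrays as well. Of the markers of epidermis and hair follicle, a tissue that also holds melanocytes, 8 of 11 were on the array. All 8 were detected on every array, but whether these transcripts came from skin was not tested. Their median log2 signal was 11.11 to 12.76 in WT and 12.3 to 12.79 in *Cmah*-null arrays. All 8 had log2 fold changes above 0, with a median of 0.9, and 1, *Trp63*, a transcription factor of basal keratinocytes, was called higher (1.08, SE 0.41, adjusted p = 0.571), though without WT replicate 1 or 2 or any 1 *Cmah*-null replicate (0.71 to 1.14) it was not. Their median was lowest in WT replicate 1 (11.11). It was nearly the same in *Cmah*-null replicate 3 (12.79), where *Dct* was lowest, and in WT replicate 3 (12.76), where *Dct* was highest. Single markers moved both ways between these arrays. *Krt14* had 15.56 in WT replicate 3 and 14.69 in *Cmah*-null replicate 3, and *Krt10* had 14.29 and 14.85. The part of skin melanocytes in the pigment signal was not tested.

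Schwann and satellite glia, which share the neural crest origin and *Sox10* and *Ednrb*, had 11 of 13 markers on the array, none called, and a median log2 fold change of -0.37, with 1 above and 10 below 0. Their median signal was 10.76 to 12.06 in WT and 11.27 to 11.34 in *Cmah*-null arrays, highest in WT replicate 1. *Pmp22*, a myelin protein, had -0.78 (SE 0.45, adjusted p = 0.683). It passed the rule with a block for bead number (-1.11) or for replicate number and without WT replicate 3 (-1.19), and was -0.31 without WT replicate 1.

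Mast cells and osteoclasts use *Mitf*. Of the mast cell markers 9 of 11 were on the array and none was called (median 0.09), with the tryptase *Tpsab1* at 0.35 (SE 0.13), which passed the rule under neqc (0.8). Of the osteoclast markers 9 of 10 were on the array and 1 was called lower (median -0.04), the protease *Ctsk* at -0.65 (SE 0.23, adjusted p = 0.555). *Ctsk* was not called under median scaling (-0.15), without *Cmah*-null replicate 3 (-0.4) or without any 1 WT replicate (-0.7 to -0.56).

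The retinal pigment epithelium, another pigmented tissue, is not expected in a cochlea. Of its markers 6 of 7 were on the array, *Rgr* and *Lrat* were detected on none, and *Rpe65* lay at 7.41 to 7.58 on all arrays, near background. Others were present: *Rlbp1* was detected on 5 arrays, at up to 7.97, and *Ttr*, which the choroid plexus also makes, on all 6, at 10.36 to 15.56 (log2 fold change 2.01, SE 1.26, adjusted p = 0.7), both named after their values were seen. *Rdh5*, a retinol dehydrogenase that is also made elsewhere, was called higher, with 9.47, 9.45 and 9.52 in WT and 10.2, 10.24 and 10.32 in *Cmah*-null replicates 1 to 3 (log2 fold change 0.77, SE 0.07, limma adjusted p = 0.25). The median of the 6 genes was 0.

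Of the 8 endothelial markers 1 was called lower (median -0.2), the tight junction gene *Cldn5* at -0.73 (SE 0.23), and *Tek*, the angiopoietin receptor, had -0.45 (SE 0.14). *Cldn5* was not called under median scaling (-0.26), without WT replicate 2 (-0.67) or 3 (-0.63), without *Cmah*-null replicate 1 (-0.59) or 2 (-0.66), or with a block for bead number (-0.55). Of 10 skeletal muscle markers none was called (median -0.53), with *Mylpf* at -1.65 (SE 0.92). *Mylpf* passed the rule with a block for replicate number or for bead number (-2.26) and without WT replicate 3 (-2.38), and was -0.81 without *Cmah*-null replicate 3.

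Of the 9 brown fat markers 4 were called lower (median -1.2), among them the uncoupling protein gene *Ucp1* at -2.11 (SE 0.52), *Cidea* at -2.01 (SE 0.42) and *Cox7a1* at -1.54 (SE 0.36), the last not called under median scaling (-1.06). The median brown fat signal was 12.23 to 13.21 in WT and 9.97 to 11.26 in *Cmah*-null arrays. Of the marrow markers 9 of 11 were on the array and none was called (median 0.02), with *Cd34* at -0.24, *Gata2* at 0.69 and *Ela2* at 0.71. *Gata2* passed the rule with the bead number block (0.92) and under median scaling (1.1) and was 0.26 without *Cmah*-null replicate 3, and *Ela2* passed it without WT replicate 2 (0.89) and under median scaling (0.9) and was 0.42 without WT replicate 3. The median brown fat signal was lowest in *Cmah*-null replicate 3, the array lowest in *Dct* and *Ednrb*. It was highest in WT replicate 1 (13.21), where *Dct* (8.56) was lower than on any array but *Cmah*-null replicate 3. The part of the tissue mix in the values of the pigment genes was not tested.

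**Figure D4:**
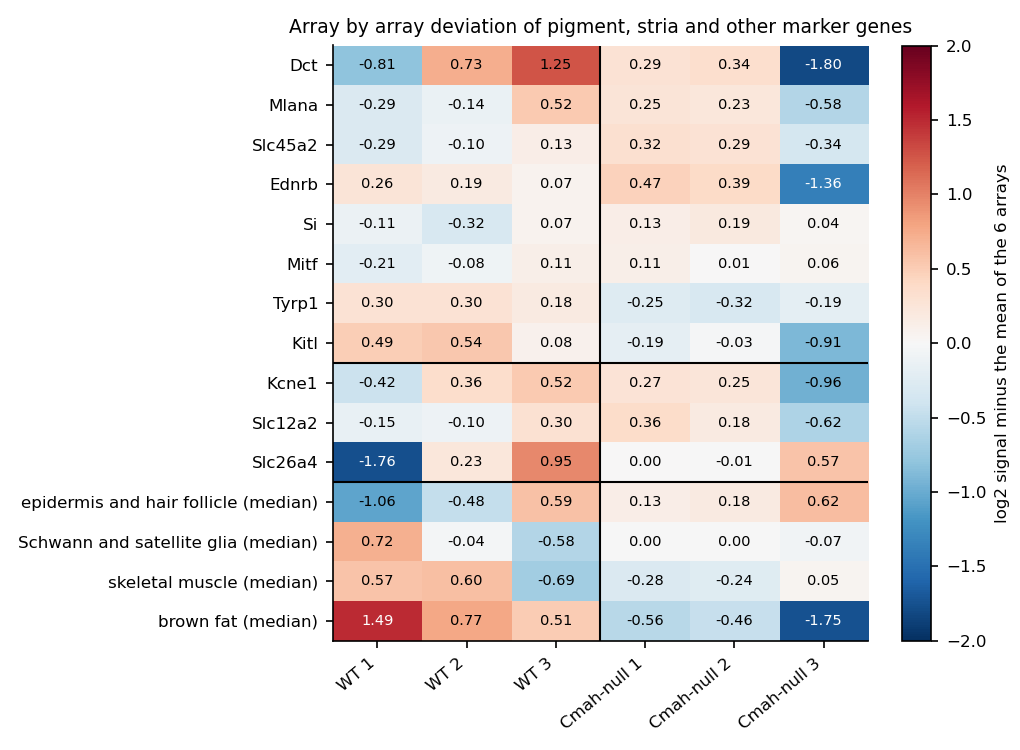
Log2 signal of melanocyte genes and *Kitl* (top), stria genes (middle) and the median of 4 marker lists (bottom) on each array, given as the difference from the mean of the 6 arrays, with red above and blue below it. *Dct* and *Ednrb* stand at -1.80 and -1.36 in *Cmah*-null replicate 3, where brown fat stands at -1.75. In WT replicate 1 brown fat stands at 1.49 and *Dct* at -0.81. *Tyrp1* is above its mean in all 3 WT arrays and below it in all 3 *Cmah*-null arrays.

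The plot of alternatives sets the 4 genes with the clearest array patterns side by side. *Tyrp1* was below 0 in all 15 alternatives, and so was *Dct*, from -1.38 (SE 0.74) to -0.07 (SE 0.6). These are not 15 separate checks, since some settings, such as the replicate block, leave the estimate as it was. For *Tyrp1*, leaving out or averaging arrays could not turn the sign. Within the arrays with fewer beads *Dct* was 1.12 higher in *Cmah*-null mice. *Mlana* and *Ednrb* turned sign, *Mlana* between -0.22 and 0.21 and *Ednrb* between -0.66 and 0.26.

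**Figure D5:**
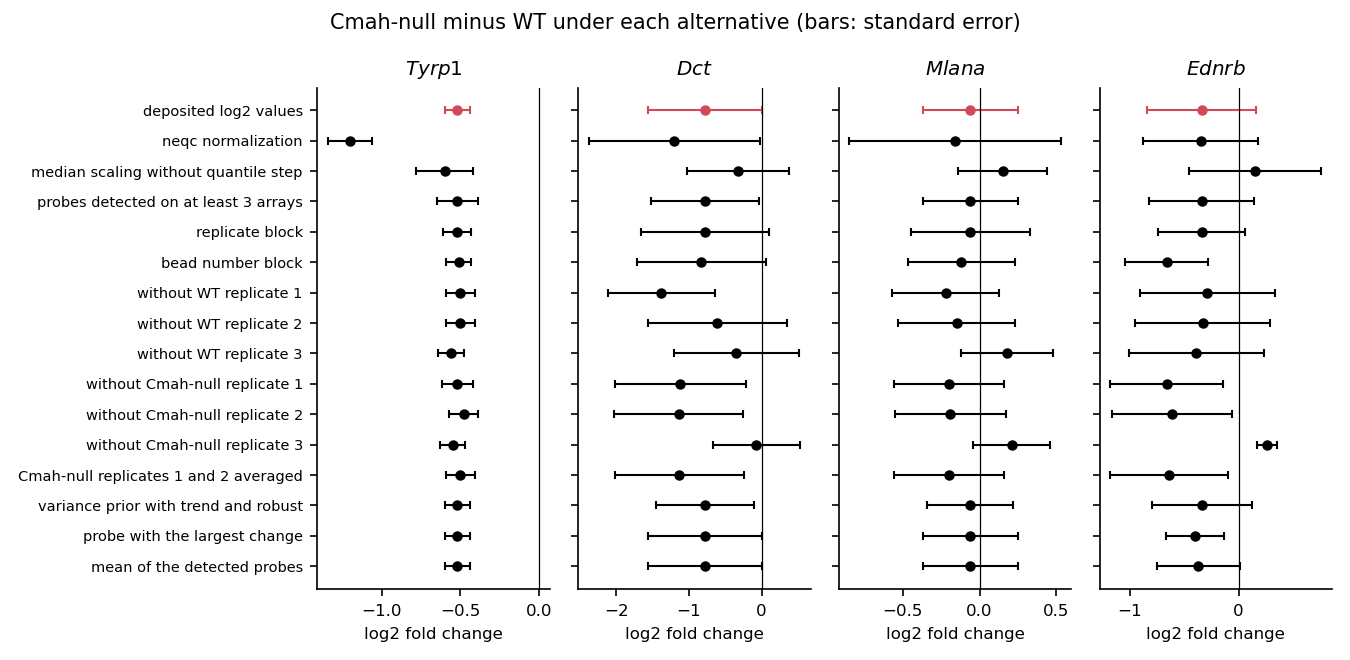
Log2 fold change, *Cmah*-null minus WT, of *Tyrp1*, *Dct*, *Mlana* and *Ednrb* under the main analysis (red) and each of 15 alternatives (black), with bars of 1 standard error. *Tyrp1* lies between -1.2 and -0.48 throughout, whereas *Mlana* and *Ednrb* cross 0 when *Cmah*-null replicate 3 is left out.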

How the data were processed

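Cochlear RNA of 3 WT and 3 *Cmah*-null mice was measured on 1 array per sample. The authors deposited raw intensity values (average bead signal, linear, no background subtraction) with bead standard errors and numbers of beads, 22 to 57 for the features of these genes. The detection p value came with the deposited raw table. The authors deposited log2 values too, and a check against the raw table showed quantile normalization of its log2 signals, with differences of at most 5e-07. The number of arrays limits the precision.

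The log2 values were compared with limma 3.58.1 in R 4.3.3 (lmFit, eBayes, two-sided, no covariate), Benjamini-Hochberg adjusted over all 25697 features, and tested on simulated data. The rule of 1.5-fold with p under 0.05 is that of the study, which does not say whether its p was adjusted. An unadjusted p was used for it here. The 10 genes and 14 further lists were chosen with earlier results of these data known. A gene is represented by its brightest feature. From each further list up to 3 genes were named, detected on all arrays of a group, without overlap and with the largest change, or else the largest change. Some genes these rules select are not reported here. Alternatives were neqc (offset 16), median scaling, a detection filter on 3 arrays, blocks for replicate number and bead number, each array left out, *Cmah*-null replicates 1 and 2 averaged, another variance prior and other features per gene. Probe coordinates were not printed, since their build is not given in the sources used here. Figures used matplotlib 3.10.9 in Python 3.11.15.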

Additional observations from a re-analysis of the deposited data

How the results depend on the processing

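No melanocyte gene passed an adjusted p under 0.05 in the main analysis or in any of the 15 alternatives (0 in each, also 0 to 0 with an array left out). By the 1.5-fold rule, 0 genes became 1 with neqc and 1 with median scaling, both *Tyrp1*, called lower, and stayed 0 with each array left out (0 to 0). Of all 25697 features, 698 were called lower with neqc and 79 with median scaling, against 363 in the main analysis. The number of genes whose groups did not overlap, 1 in the main analysis, was 1 to 5 with an array left out: 2 without WT replicate 1 (*Dct*, *Tyrp1*), 3 without WT replicate 3 (*Tyrp1*, *Si*, *Mitf*) and 5 without *Cmah*-null replicate 3 (*Tyr*, *Tyrp1*, *Si*, *Ednrb*, *Slc45a2*). Smaller groups overlap less often by construction, and the share of all features without overlap was not computed for these settings. *Tyr* was detected on no array. The median log2 fold change of the 8 genes, -0.07, was -0.16 to 0.17 with an array left out (0.04 without WT replicate 3, 0.17 without *Cmah*-null replicate 3) and 0.14 with median scaling, under which the median of the features detected on all arrays moved from 0.03 to 0.30. *Mlana* turned from -0.06 to 0.15 with median scaling, 0.18 without WT replicate 3 and 0.21 without *Cmah*-null replicate 3 (-0.22 to 0.21 with an array left out). *Ednrb* turned from -0.34 to 0.15 with median scaling and 0.26 without *Cmah*-null replicate 3 (-0.66 to 0.26 with an array left out). The cause was not tested. *Tyr* is left out by the detection filter.

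Same-numbered replicates did not deviate together (correlations 0.02, -0.17 and 0.01), so the numbers were not taken to pair the samples. With the replicate block 0 of these genes were called and 1 did not overlap, and over all features 401 were higher and 410 lower, against 334 and 363. Those counts were 784 and 698 with neqc, 2409 and 79 with median scaling, 855 and 873 with the bead number block (3 then passed the adjusted p), and 191 and 238 without WT replicate 2 to 513 and 524 without WT replicate 3. Signal close to background limits *Tyr*, *Tyrp1*, *Mitf* and *Slc45a2*.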
